A study of Mus musculus with 18 samples.

Results

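The question addressed here is whether the liver's response to calorie restriction depends on the fat content of the diet. It was read from 12 of the 18 livers of the series, those of the groups LF, LF+CR, HF and HF+CR with 3 livers each, as the difference of 2 differences: the log2 difference between HF+CR and HF, minus the log2 difference between LF+CR and LF. This quantity is called the interaction below. A positive interaction means that expression with restriction, relative to unrestricted feeding, was higher on the high-fat than on the low-fat diet, and a negative interaction means the reverse.

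All 12 mice were males of the inbred strain C57BL/6J, were kept 1 to a cage, and were 62 weeks old when their livers were taken. From 5 weeks of age the LF mice had free access to a diet with 10% fat and the HF mice to a diet with 60% fat. The LF+CR and HF+CR mice were given 30% less than the intake of the LF and the HF mice respectively, so that each restricted group was set against the intake on its own diet. Each array was hybridised with liver RNA from 1 mouse, and the 3 mice per group were taken from groups of 30. Restriction and diet therefore applied to the whole animal for most of adult life, and whole liver was measured: in bulk tissue, fewer cells of a type and less RNA per cell cannot be told apart. The labels give neither the time of day nor the time since the last meal at which the livers were taken. The groups with running wheels were not used.

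The liver takes up dietary fat and makes fatty acids from carbohydrate when carbohydrate is plentiful, under insulin and the transcription factors SREBP1c and ChREBP. It stores the surplus in lipid droplets, whose coat proteins are partly under the nuclear receptor PPAR-gamma. The mouse liver is also one of the most sex-dependent tissues: pulses of growth hormone in males, and its steadier presence in females, act through STAT5B to keep separate sets of male-biased and female-biased genes, many of them cytochromes P450, steroid-metabolising enzymes and transporters.

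Hepatocyte genes checked the tissue: the intensities of albumin (Alb), the main plasma protein of the liver, lay between 18750 and 21650 in all 12 livers. Deposited intensities ran from 31.08 to 21653.94, and the arrays' means differed little (304.9 to 307.8). Of 18193 genes with a probe set of their own, 14006 were bright enough to be tested. Below an intensity of 88.2 to 97.6, depending on the array, a gene is called dim, and differences between dim values carry little information. Some livers stood apart. LF 1 and LF+CR 1 held pancreatic transcripts (Clps, the colipase of pancreatic juice, at 260 and 386, against 52.6 to 61.8 in the other 10), and LF+CR 2 lay farthest out on the first principal component (31% of the variance), followed among the livers on its side by HF 1. Markers of several other cell types were high in that pair. LF+CR 2 held the highest value of its group for 12 of 12 Kupffer cell markers, 8 of 9 of recruited macrophages, 6 of 9 of MHC class II cells and 10 of 12 of stellate cells and fibroblasts, and HF 1 for 7, 7, 5 and 5 of them. In other lists LF+CR 2 held it for 4 of 5 cholangiocyte, 6 of 10 T and NK cell, 4 of 11 sinusoidal endothelial and 0 of 7 neutrophil markers. HF 1 held it for 0, 2, 7 and 1 of these. Any liver of 3 holds the highest value for some genes, and the share over all genes was not computed. Mmp12, a macrophage protease, was at 259.6 in LF+CR 2 against 51.2 and 50.69 in LF+CR 1 and LF+CR 3, and at 364.9 in HF 1 against 114.6 and 191.6 in HF 2 and HF 3.

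The interaction passed the test (limma, adjusted p below 0.05 over all genes tested) for 587 of 14006 genes, or 4.19%, of which 332 were positive (2.37%) and 255 negative (1.82%), with 3048 genes at an unadjusted p below 0.05. The largest interactions belonged to genes known to differ between the sexes, and the genes of fatty acid synthesis and of lipid droplets made up further groups. Restriction on the low-fat diet changed 515 genes (3.68%), of which 223 were higher (1.59%) and 292 lower (2.08%), and on the high-fat diet 586 genes (4.18%), of which 333 were higher (2.38%) and 253 lower (1.81%). The 3 LF and the 3 LF+CR values did not overlap in 20.3% of all genes tested, the HF and the HF+CR values in 31.3%, and neither pair overlapped in 7.68%. The median standard error was 0.123 for an interaction and 0.0873 for a single diet. With the arrays centred on their medians instead, the interaction gave 233 positive and 295 negative genes, or 44.1% positive in place of 56.6%, and the high-fat comparison gave 190 higher and 330 lower, or 36.5% higher in place of 56.8%. The direction in which most genes passed is therefore not settled by these data.

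Single livers also moved the counts. The interaction count was 273 without HF 1, 287 without LF 3, 337 without HF 3, 339 without LF+CR 1 and 350 without HF+CR 2. On the low-fat diet it was 252 without LF 3, 262 without LF+CR 1 and 311 without LF 2. Without both livers with pancreatic transcripts the low-fat count was 189. The high-fat count was 170 without HF 1, 199 without HF+CR 2, 207 without HF 3, 243 without HF+CR 1 and 1067 without LF+CR 2, and it was 363 without both LF+CR 2 and HF 1. The interaction count was 274 without both livers with pancreatic transcripts, and without both LF+CR 2 and HF 1 it was 272. Of the named genes that passed, leaving out both livers with pancreatic transcripts ended the call for Cyp4a12a, Mlxipl, Igf1, Ctsb, Glul, Pgk1, Npc2, Hexa, Akr1d1, Acsl3, Slco1a4, Apoa4, Pgd, Cidec, Cyp2b10, Thrsp, Ccnd1 and Gstm3 (adjusted p of 0.06 to 0.14). Leaving out both LF+CR 2 and HF 1 ended it for the same genes other than Cyp4a12a, Slco1a4, Cidec, Ccnd1 and Gstm3 (0.055 to 0.17). Just inside the threshold lay Tns3 and Hspa9 (adjusted p = 0.0496 and 0.0498), and just outside it Zfhx3 and Zfp87 (both 0.0511).

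The 587 genes were sorted by the size of the fitted difference on each diet, with 0.5 on the log2 scale as the limit, as a description without a test. Restriction moved 82 genes (14%) by at least this much in opposite directions, 48 of them down on the low-fat and up on the high-fat diet and 34 the other way. A further 118 (20.1%) moved past the limit on the low-fat diet only and 87 (14.8%) on the high-fat diet only. Just 2 genes, Fasn and Acly, moved past it in the same direction on both diets, and for 298 (50.8%) neither difference reached it. Among all genes tested the opposite pattern was held by 104, or 0.743%. On the linear intensity scale none of the 587 interactions had the other sign. In 36 of the 82 opposite genes the change also passed on each diet by itself, 25 with a positive and 11 with a negative interaction.

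**Figure D1:**
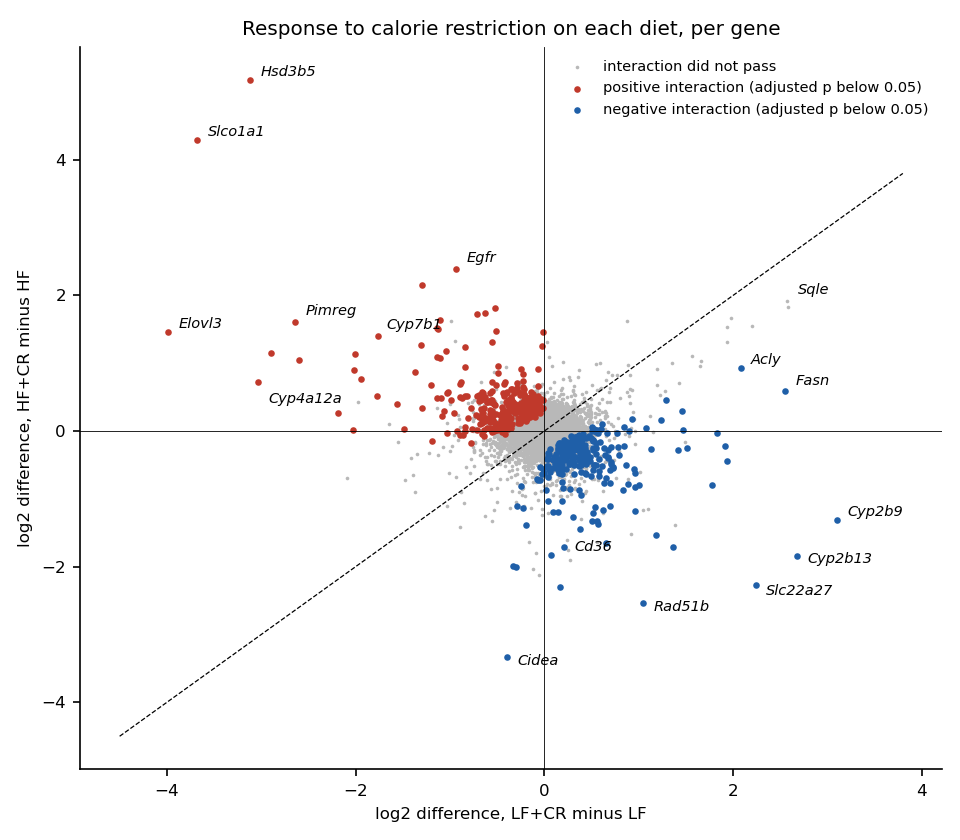
Response to restriction on the low-fat diet (horizontal axis, log2 difference LF+CR minus LF) and on the high-fat diet (vertical axis, log2 difference HF+CR minus HF), 1 point per gene for 14006 genes. Coloured points passed the test of the interaction, which is the vertical distance from the dashed line of equal response. Hsd3b5 and Slco1a1 lie far up at the left, Cyp2b9, Cyp2b13 and Slc22a27 low at the right, and Fasn and Acly below the line at the right.

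Male-biased genes formed the group with the largest interactions: of 22 members tested, 18 passed with a positive and 0 with a negative interaction (81.8%, against 4.19% of all genes), and the list's median interaction was 2.61, against 0.0536 over all genes. Like the other lists used here, this list was chosen with earlier results of these data known, so its share is a description and no test. On the low-fat diet 14 of the 22 fell with restriction and 1 rose, and on the high-fat diet 10 rose and 0 fell. Of the remaining members, Mup3, Gna14, Moxd1 and Ces2e did not pass the interaction test.

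Hsd3b5, a male-biased 3-ketosteroid reductase, had the largest interaction of all. Its intensities were 243, 884 and 1936 in the LF livers, 78.3, 69.8 and 70.6 in LF+CR, 73.1, 75.3 and 70.2 in HF, and 3053, 2582 and 4177 in HF+CR. It was thus dim both in restricted livers on low fat and in unrestricted livers on high fat, and bright in the other 2 groups, with no overlap within either diet. The log2 difference with restriction was -3.11 on low fat and 5.18 on high fat, and the interaction was 8.29 (SE 0.72, adjusted p = 1.0e-04). Because 2 groups were dim, the size depends on the constant added before the logarithm: it was 8.78 with a constant of 1 and 7.19 with one of 64.

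Slco1a1, an organic anion transporter that takes bile acids and steroid conjugates into hepatocytes, repeated this order. Its intensities were 1302, 1163 and 2103 in LF, 116, 82.4 and 105 in LF+CR, 110, 118 and 103 in HF, and 2413, 2512 and 2425 in HF+CR. The restricted livers on high fat were the brightest and lay within a narrow range. It fell by 3.68 on low fat and rose by 4.29 on high fat on the log2 scale, and the interaction of 7.96 (SE 0.25) had the smallest adjusted p of all genes, 1.2e-08.

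Elovl3, an elongase of very long chain fatty acids, fell on low fat from 3250, 2485 and 2804 in LF to 299, 72.3 and 194 in LF+CR. In HF its intensities were 825, 746 and 1620, and in HF+CR 2176, 2405 and 4086. The groups did not overlap on either diet, but the high-fat difference of 1.46 did not pass (adjusted p = 0.0722), while the interaction was 5.44 (SE 0.59, adjusted p = 4.6e-04).

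Cyp7b1, which hydroxylates oxysterols in the acidic route of bile acid synthesis, varied little within groups. It lay at 2971, 2972 and 3309 in LF, 1005, 747 and 953 in LF+CR, 1568, 2199 and 2123 in HF, and 5297, 4677 and 5599 in HF+CR. The 4 groups did not overlap at all, with LF+CR lowest and HF+CR highest, and the interaction was 3.17 (SE 0.19, adjusted p = 8.7e-06), or 2.10 over the mean of the gene's probe sets.

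Mup10, 1 of the major urinary proteins that carry pheromones, and Cyp4a12a, a fatty acid hydroxylase under androgen and growth hormone control, fell on low fat (-2.90 and -3.03). Their high-fat differences of 1.14 and 0.72 did not pass (adjusted p = 0.0585 and 0.448), and their interactions were 4.04 and 3.75. One HF liver decided much of the spread of Cyp4a12a: its HF intensities were 1555, 247 and 1443, and the interaction was 2.91 (adjusted p = 0.0048) without HF 2. Without LF 3, LF+CR 1 or HF+CR 3 the call for Cyp4a12a was lost (adjusted p up to 0.0574), as it was without both LF 1 and LF+CR 1 (3.67, adjusted p = 0.086).

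Egfr, the receptor of epidermal growth factor, showed its main change on the high-fat diet. Its intensities were 1802, 1927 and 1421 in LF, 739, 522 and 1772 in LF+CR, 372, 456 and 692 in HF, and 3117, 2730 and 2182 in HF+CR. LF and LF+CR overlapped through 1 liver, LF+CR 3, and the low-fat difference of -0.94 did not pass (adjusted p = 0.195). The high-fat rise of 2.40 passed (adjusted p = 0.0051), and the interaction was 3.33 (SE 0.51, adjusted p = 0.0044), or 1.53 over the mean of 6 probe sets.

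The other male-biased members that passed ranged from 0.95 (Nat8) to 2.92 (Serpina12) in the interaction and included Susd4, Cyp2d9, Ugt2b1, Ugt2b38, Cyp2u1 and Nudt7. Cyp4a12a and Mup10 belong to families whose members share sequence, so that their probe sets may read several of them.

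Female-biased genes moved the other way: of 25 members tested, 11 passed with a negative and 1, Adh4, with a positive interaction, and the median was -0.894. The share that passed was 48%, against 4.19% of all genes. On the low-fat diet 7 rose with restriction and 0 fell, and on the high-fat diet 0 rose and 9 fell. The count of negative members was 7 without HF+CR 1 and also 7 without HF+CR 3.

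Cyp2b9 and Cyp2b13 are cytochromes P450 that male mouse liver normally keeps low. Cyp2b9 lay at 189, 432 and 227 in LF, 3055, 1607 and 2785 in LF+CR, 1565, 1966 and 1925 in HF, and 849, 583 and 753 in HF+CR. It rose by 3.10 on low fat and fell by 1.31 on high fat, with no overlap on either diet, and the interaction was -4.41 (SE 0.41, adjusted p = 1.5e-04). Cyp2b13 was dim in LF (77.3, 80.0 and 71.3), at 754, 270 and 907 in LF+CR, at 250, 539 and 300 in HF, and again dim in HF+CR (87.9, 83.4 and 80.8). Its interaction was -4.52 (SE 0.51, adjusted p = 6.7e-04), and -4.91 or -3.67 with a constant of 1 or 64.

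The genes lie close together on chromosome 7, and their promoters are shown because the pair moved together. In RefSeq on the build GRCm38.p6, the stretch from 250 bases before to 50 bases after the start is chr7:26173159-26173458 for Cyp2b9 and chr7:26061245-26061544 for Cyp2b13, both on the plus strand. They are printed 5′ to 3′, with the 2 positions at which they differ in capitals.
Cyp2b9: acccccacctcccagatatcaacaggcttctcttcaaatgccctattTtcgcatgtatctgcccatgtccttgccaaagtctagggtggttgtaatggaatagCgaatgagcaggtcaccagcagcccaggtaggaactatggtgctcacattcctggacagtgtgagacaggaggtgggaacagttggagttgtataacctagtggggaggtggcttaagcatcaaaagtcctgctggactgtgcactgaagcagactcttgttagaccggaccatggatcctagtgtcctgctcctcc
Cyp2b13: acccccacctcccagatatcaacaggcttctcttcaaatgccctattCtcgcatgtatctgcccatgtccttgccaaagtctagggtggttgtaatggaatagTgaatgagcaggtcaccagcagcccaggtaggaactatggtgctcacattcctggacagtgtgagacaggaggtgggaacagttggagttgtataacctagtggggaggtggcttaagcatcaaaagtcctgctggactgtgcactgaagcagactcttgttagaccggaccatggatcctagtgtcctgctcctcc
The pair was identical at 298 of 300 bases (99.3%). Most of this stretch lies before the start and is not transcribed, so it does not bear on the probe sets. The probe sequences were not used here, and whether the probe sets read both transcripts was not tested.

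Slc22a27, a female-biased member of the organic anion transporter family, had an interaction of the same size. It was at 291, 144 and 117 in LF, 783, 1101 and 754 in LF+CR, 420, 736 and 581 in HF, and 95.9, 121 and 98.0 in HF+CR. It rose by 2.24 on low fat and fell by 2.27 on high fat, and the interaction was -4.51 (SE 0.40, adjusted p = 1.0e-04).

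Among the remaining female-biased members Cyp2c38 fell on high fat (-1.65, interaction -2.31), and so did Fmo1, a flavin monooxygenase (-0.62, interaction -0.78), while their low-fat differences of 0.66 and 0.17 did not pass. Trim24, a transcriptional co-regulator of nuclear receptors, lay at 318, 234 and 268 in LF, 499, 391 and 410 in LF+CR, 284, 361 and 238 in HF, and 160, 176 and 155 in HF+CR, with an interaction of -1.41 (SE 0.21, adjusted p = 0.0035). Cyp2b10, the classical target of the xenobiotic receptor CAR, rose on low fat (1.52) and differed by -0.24 on high fat (adjusted p = 0.637), and its interaction of -1.76 (adjusted p = 0.0391) lost its call when any of 8 single livers was left out, with adjusted p up to 0.101. It was -1.47 (adjusted p = 0.14) without both LF 1 and LF+CR 1, and -1.95 or -1.35 with a constant of 1 or 64, and its LF group was dim.

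**Figure D2:**
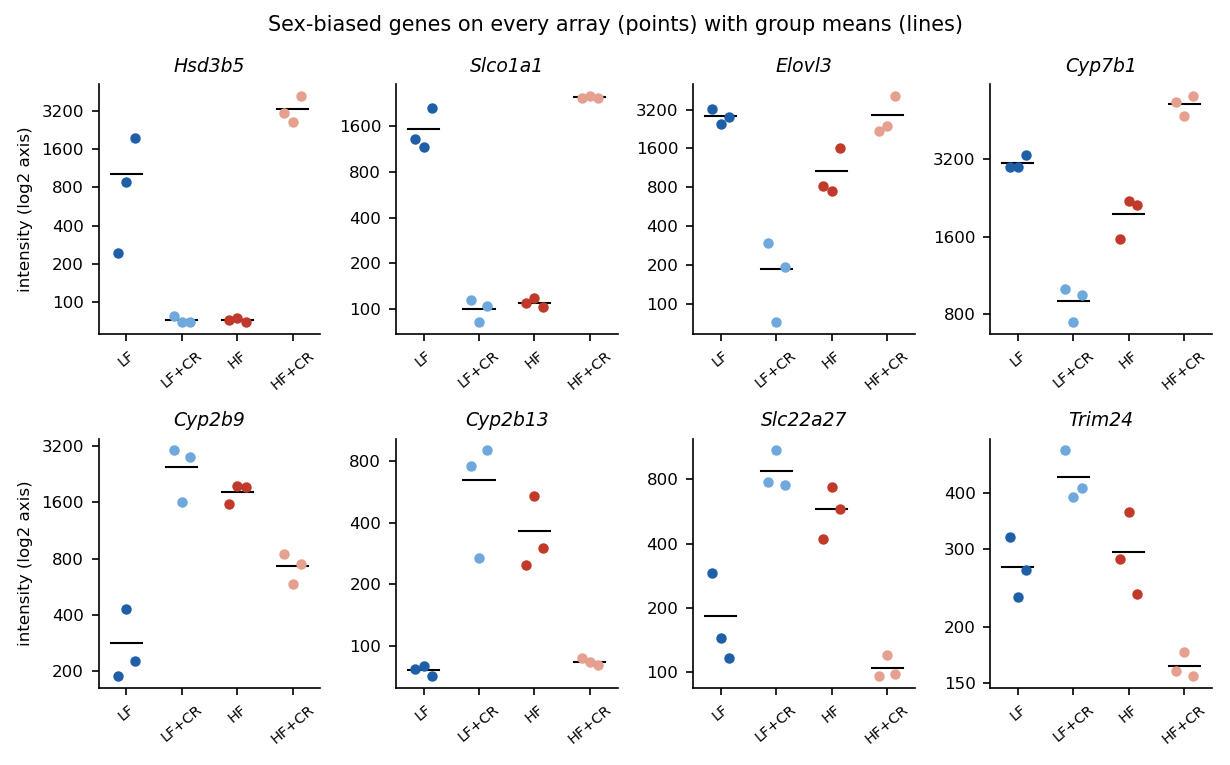
Intensity (log2 axis) of 4 male-biased genes (upper row) and 4 female-biased genes (lower row) in each of the 12 livers, with points for livers and lines for group means. Male-biased genes are lower in LF+CR than in LF and higher in HF+CR than in HF, and female-biased genes show the reverse order.

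The list of the growth hormone and IGF1 axis held few calls. Of its 20 tested genes 2 passed (10%, against 4.19% of all genes), both positive. They were Lifr and Igf1, the circulating growth factor made by the liver on growth hormone signals. Lifr stands in the list but is the receptor of leukaemia inhibitory factor and not of growth hormone. Apart from Lifr, Igf1 was the only call of the list. In limma 8 of the 20 were at an unadjusted p below 0.05, all positive, against 3048 of 14006 over all genes. The list's median interaction was 0.263, and 18 of the 20 values lay above 0. Lifr was at 1247, 894 and 1309 in LF, 584, 359 and 624 in LF+CR, 389, 625 and 521 in HF, and 1471, 1249 and 1708 in HF+CR, and passed on each diet (-1.13 and 1.51). Its interaction was 2.65 (SE 0.32, adjusted p = 9.7e-04), or 1.37 over the mean of its probe sets.

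Igf1 was at 4430, 4500 and 4471 in LF, 4022, 3241 and 3956 in LF+CR, 3451, 3887 and 3762 in HF, and 4645, 4214 and 4679 in HF+CR. Neither diet's difference passed (-0.26 and 0.29), and the interaction of 0.55 (SE 0.12, adjusted p = 0.0294) was lost when any of 7 single livers was left out, with adjusted p up to 0.0805. The growth hormone receptor Ghr stood just outside the threshold (0.53, 95% interval 0.23 to 0.83, adjusted p = 0.0535). So did Igfals (1.04, 0.45 to 1.63, adjusted p = 0.0549), while the interval of Cish was wide (-1.87 to 1.56). Socs2 did not pass (0.73, -0.46 to 1.93, adjusted p = 0.447). Its means were 635 in LF, 476 in LF+CR, 160 in HF and 212 in HF+CR, so it was low on high fat with and without restriction.

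Of the regulators of sex-biased expression, Stat5b, Hnf4a, Cux2 and Bcl6 did not pass. The interaction was 0.19 (95% interval -0.16 to 0.53) for Stat5b, 0.17 (-0.09 to 0.43) for Hnf4a and 0.08 (-0.08 to 0.25) for Cux2, a factor of female liver. These intervals hold for the chosen probe sets only. Other probe sets gave -0.10 for Stat5b, and 0.02, -0.51 and -0.37 for Hnf4a. Those of Cux2 gave -0.01 and -0.93, the latter near the dim limit. For Hnf4a and Cux2 the value thus depends on the probe set. Bcl6, a repressor in male liver, had an interval from -0.71 to 3.39: its intensities within HF+CR alone were 1247, 1094 and 210.

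By correlation over the 12 livers, the genes most like Hsd3b5 were Nipsnap3a (Pearson r = 0.979), Lama3 (0.964) and Ttc39c (0.957). Slco1a1 was most like Nipsnap3a (0.961), C8b (0.955) and Adh6-ps1 (0.953), and Elovl3 like Abhd13 (0.971), Ephx2 (0.965) and Ptbp1 (0.960). Cyp2b13 was nearest to Hs6st1 (0.918), Rnf170 (0.912) and Cyp2b9 (0.891), and Slc22a27 to Maoa (0.948), Fam241a (0.942) and Grina (0.932). These values describe a shared order of livers and groups.

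Complement genes were a smaller group with positive interactions. Of 18 members 5 passed (27.8%, against 4.19% of all genes), all positive (C8a, C8b, C6, Mbl1 and C1ra), with a median of 0.298 over the list. On low fat 5 fell and on high fat 2 rose. C6, C8a and C8b, which encode parts of the membrane attack complex, are also members of the male-biased list, so the counts overlap.

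C6 lay at 1297, 1055 and 1409 in LF, 360, 637 and 520 in LF+CR, 895, 607 and 685 in HF, and 1631, 1649 and 2006 in HF+CR. It fell by 1.31 and rose by 1.27, with an interaction of 2.58 (SE 0.27, adjusted p = 4.2e-04). C8b behaved alike, with 928, 1315 and 1509 in LF, 497, 440 and 763 in LF+CR, 471, 553 and 537 in HF, and 1440, 1543 and 1546 in HF+CR, and an interaction of 2.64 (SE 0.27). Mbl1, a mannose-binding lectin that starts the lectin pathway and is in no sex-biased list used here, fell on low fat (-0.66) and differed by 0.27 on high fat (adjusted p = 0.163), with an interaction of 0.92 (SE 0.15, adjusted p = 0.0066).

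Fatty acid synthesis genes responded more to restriction on the low-fat than on the high-fat diet, with median log2 differences of 0.915 and 0.0475. Of 15 members tested, 8 passed with a negative interaction (Fasn, Elovl6, Acaca, Acly, Thrsp, Pklr, Tkfc and Me1) and 0 with a positive one, and the median was -1.03. The share that passed was 53.3%, against 4.19% of all genes. On low fat 12 of the 15 rose with restriction. On high fat Acly rose and Scd1 fell, and the other 13 did not pass. In either direction, LF and LF+CR did not overlap for 12 of the 15, against 20.3% of all genes. HF and HF+CR did not overlap for 8 of them, against 31.3% of all genes. Without the 2 livers with pancreatic transcripts 5 members passed the interaction.

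Fasn, the fatty acid synthase, was at 550, 605 and 811 in LF, 5104, 3541 and 3195 in LF+CR, 1427, 966 and 1146 in HF, and 1664, 1805 and 1823 in HF+CR. The groups did not overlap on either diet. The rise of 2.55 on low fat passed (adjusted p = 4.5e-05), the difference of 0.59 on high fat did not (adjusted p = 0.0971), and the interaction was -1.96 (SE 0.26, adjusted p = 0.0022).

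Acaca makes malonyl-CoA, the building block for Fasn, and Elovl6 lengthens its product. Acaca was at 611, 505 and 593 in LF, 2110, 1302 and 1492 in LF+CR, 725, 475 and 544 in HF, and 527, 642 and 574 in HF+CR. HF and HF+CR overlapped fully, and the interaction was -1.45 (SE 0.25, adjusted p = 0.0094). Elovl6 rose from 542, 554 and 871 in LF to 3464, 1896 and 1901 in LF+CR, with 695, 486 and 544 in HF and 522, 709 and 460 in HF+CR, and had an interaction of -1.87 (SE 0.36, adjusted p = 0.0157).

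Acly, which supplies cytosolic acetyl-CoA from citrate, rose on both diets, by 2.08 and 0.93 on the log2 scale, and the interaction of -1.16 (SE 0.22, adjusted p = 0.0151) reads as a smaller rise on high fat. Thrsp, a lipogenic gene named for its induction by thyroid hormone, had 459, 1126 and 1074 in LF, 5030, 2155 and 2900 in LF+CR, 2351, 2354 and 1654 in HF, and 2125, 2348 and 1153 in HF+CR. Its interaction was -2.14 (adjusted p = 0.0486), and the call was lost when any of 11 of the 12 livers was left out (adjusted p up to 0.12). Without both livers with pancreatic transcripts it was -1.39 (adjusted p = 0.107).

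**Figure D3:**
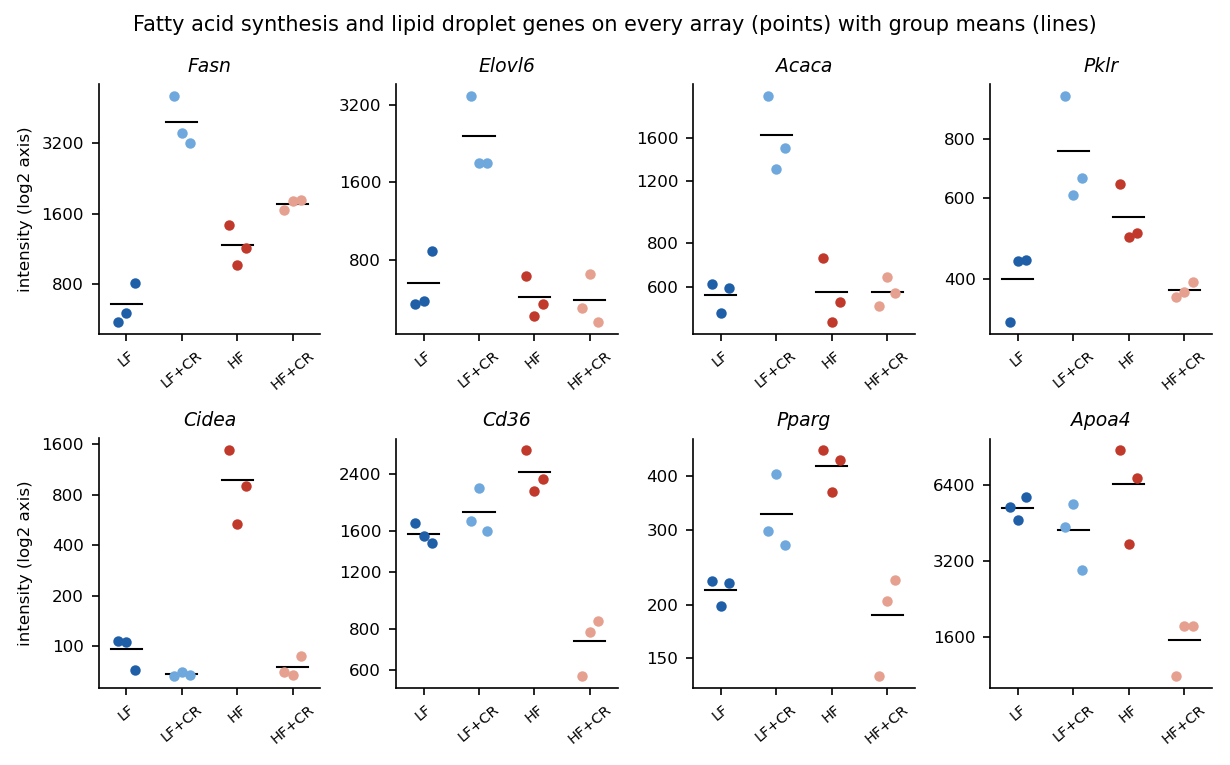
Intensity (log2 axis) of 4 genes of the fatty acid synthesis list (upper row) and 4 of the lipid droplet list (lower row) in each of the 12 livers, with lines for group means. Fasn, Elovl6, Acaca and Pklr have their highest mean in LF+CR, and Cidea, Cd36, Pparg and Apoa4 have lower means in HF+CR than in HF, with no overlap of those groups.

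The regulators of this pathway gave a less even picture. Srebf1, which encodes SREBP1c, rose on low fat from 583, 924 and 875 to 2266, 1555 and 1794 (1.23), and lay at 1268, 1461 and 1209 in HF and 1704, 2214 and 1837 in HF+CR (0.54, adjusted p = 0.107). Its interaction of -0.69 (95% interval -1.24 to -0.15) did not pass after adjustment (adjusted p = 0.141). Mlxipl, which encodes ChREBP, had an interaction of the other sign, 1.12 (SE 0.28, adjusted p = 0.048). Its call was lost when any of 8 single livers was left out (adjusted p up to 0.124), and neither diet's difference passed for it. The oxysterol receptor gene Nr1h3 did not pass (0.10, 95% interval -0.14 to 0.33).

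Cholesterol synthesis genes served as the contrast within lipid synthesis, because they rose on both diets. On low fat 14 of 17 members rose and on high fat 15 of 17, and limma called 0 of the 17 interactions, with 2 at an unadjusted p below 0.05. Over all genes tested 3048 of 14006 were at such a p. The median interaction of the cholesterol synthesis list was nevertheless -0.358, with 13 values below 0 and 4 above. Sqle, the squalene epoxidase, rose by 2.57 and 1.92, and the interval of its interaction ran from -1.68 to 0.38. Lss, which closes the sterol ring system, rose by 1.19 and 0.92, with an interval from -0.62 to 0.07. Both intervals hold no difference as well as a smaller rise on high fat.

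**Figure D4:**
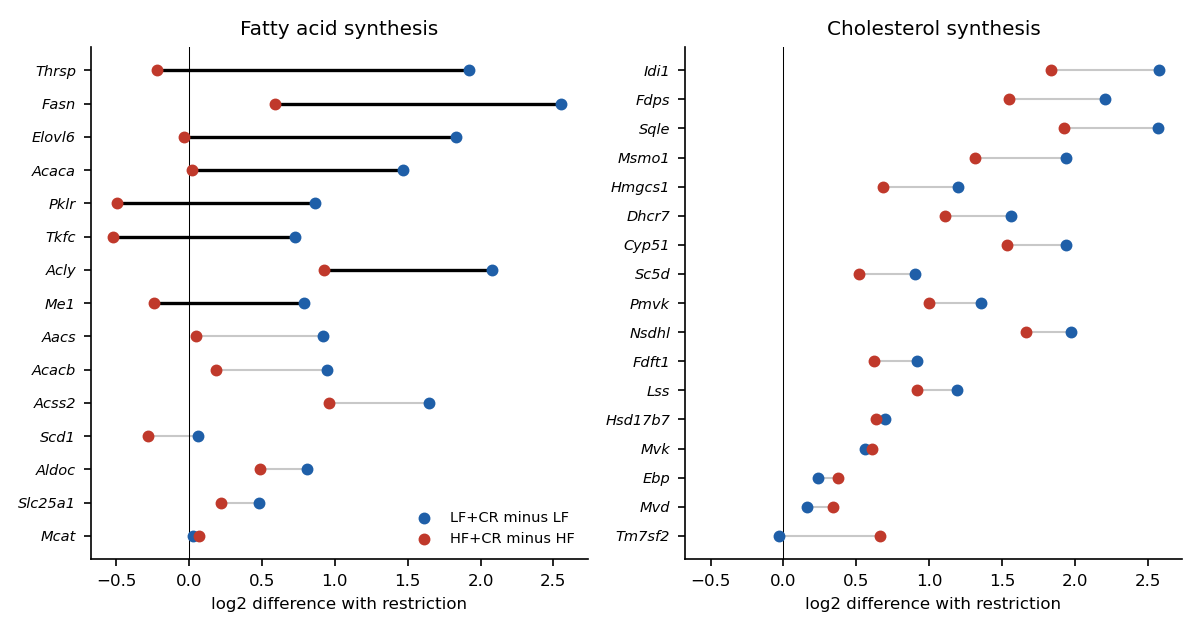
Log2 difference with restriction on the low-fat diet (blue) and on the high-fat diet (red) for each tested gene of fatty acid synthesis (left, 15 genes) and cholesterol synthesis (right, 17 genes). Thick black connecting lines mark genes whose interaction passed the test, 8 on the left and 0 on the right.

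Lipid droplet genes and the PPAR-gamma programme showed the complementary pattern, with the change on the high-fat diet. Of 21 members 7 passed (33.3%, against 4.19% of all genes), all with a negative interaction (Cidea, Cd36, Cidec, Apoa4, Pparg, Plin4 and Plin3). The median was -0.534. On high fat 10 members fell and on low fat 4 fell, and 0 rose on either. The number that passed was 4 without any 1 of LF 1, LF 2, LF 3, LF+CR 1, HF 3, HF+CR 1 or HF+CR 2, also 4 without both LF 1 and LF+CR 1, and 6 without both LF+CR 2 and HF 1. Plin5, Fitm1 and Fitm2 fell on both diets. Their interactions were -0.03 (95% interval -0.61 to 0.56), 0.26 (-0.24 to 0.76) and 0.17 (-0.12 to 0.47). These intervals hold no difference as well as larger ones.

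Cidea, a lipid droplet protein that promotes droplet fusion and is abundant in fat-laden liver, was at 108, 107 and 72.7 in LF, 66.4, 70.5 and 67.8 in LF+CR, 1479, 536 and 904 in HF, and 70.3, 67.5 and 87.5 in HF+CR. Only the HF livers had clear signal. The fall on high fat was 3.33 on the log2 scale, and the interaction was -2.94 (SE 0.38, adjusted p = 0.0017). Since the other 3 groups lay near or under the dim limit, the low-fat side of this interaction says mainly that there was little signal to lose. Cidec, a relative with a like role, was at 546, 193 and 339 in HF and at 66.6 to 120 in all 9 other livers, with an interaction of -1.70 (adjusted p = 0.0348) whose call was lost when any of 9 single livers was left out (adjusted p up to 0.0808) and without both LF 1 and LF+CR 1 (-1.91, adjusted p = 0.07). With a constant of 1 or 64 the interaction of Cidec was -1.85 or -1.36, and that of Cidea -3.11 or -2.53.

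Cd36, the fatty acid translocase, was well above the dim limit in every liver. It was at 1698, 1550 and 1475 in LF, 1725, 2175 and 1604 in LF+CR, 2842, 2132 and 2320 in HF, and 575, 788 and 846 in HF+CR. HF+CR lay below all other livers. It fell by 1.71 on high fat (adjusted p = 2.8e-04), differed by 0.21 on low fat (adjusted p = 0.572), and had an interaction of -1.92 (SE 0.22, adjusted p = 6.7e-04).

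Pparg was at 227, 199 and 225 in LF, 297, 405 and 275 in LF+CR, 461, 368 and 436 in HF, and 136, 204 and 229 in HF+CR. The fall of 1.11 on high fat passed, the low-fat difference of 0.54 did not (adjusted p = 0.122), and the interaction was -1.65 (SE 0.24, adjusted p = 0.0038). Apoa4, an apolipoprotein that liver makes when loaded with fat, was at 8848, 3741 and 6819 in HF and at 1115, 1769 and 1768 in HF+CR, while LF (5230, 4641 and 5766) and LF+CR (4375, 5414 and 2952) overlapped. Its interaction of -1.66 had an adjusted p of 0.0492, and 10 of 12 omissions of a single liver ended the call (adjusted p up to 0.115).

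Macrophage markers had their lowest summed levels in the HF+CR livers. The summed intensity of 12 Kupffer cell markers was 8800 to 12590 in LF, 9542 to 15770 in LF+CR, 9927 to 14110 in HF and 8067 to 9033 in HF+CR, and that of 9 markers of recruited macrophages was 2471 to 3107, 2492 to 4436, 2987 to 4499 and 1996 to 2358. HF and HF+CR did not overlap in either sum, and the Kupffer sum of HF+CR overlapped that of LF. None of the 12 or of the 9 passed the interaction test in limma. An unadjusted p below 0.05 was held by 5 and 6 of them, against 3048 of 14006 over all genes. The medians were -0.725 and -0.8. HF 1, the HF liver with most of the highest macrophage values, also had the highest Lgals1 and Fabp4 of the HF livers. The same held for Cidea, Cidec, Cd36, Pparg and Apoa4, each lipid droplet gene whose HF intensities are printed above. What links these genes to that liver was not tested. Cd36, Pparg and Lgals1 are expressed in macrophages as well as in hepatocytes, and the part of those cells in their values was not tested. Lgals1, which encodes a galectin, was at 4074, 2111 and 3157 in HF and 554, 475 and 807 in HF+CR, with LF at 1095, 1412 and 731 and LF+CR at 1046, 1769 and 873, and had an interaction of -2.47 (SE 0.45, adjusted p = 0.0117). Of 6 adipocyte markers, Adipoq, Lep and Nnat were dim in all 12 livers (Adipoq 51.2 to 76.0), while Fabp4, which macrophages also express, was at 657.7, 362.5 and 437.4 in HF and 292.4, 235.4 and 351.4 in HF+CR (interaction -0.86, 95% interval -1.44 to -0.27, adjusted p = 0.0974). The sum of the 6 was 759.6 to 1018 in HF, 636.4 to 742.9 in HF+CR and 614.9 to 697.9 in the low-fat groups. Of the 3 that could be tested 0 passed in limma, with 1 at an unadjusted p below 0.05, and the part of adipocytes in the lipid droplet values was not tested.

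Glutathione and NRF2 target genes, which conjugate and clear electrophiles, were the largest group of negative interactions by number after the female-biased genes. Of 27 members 9 passed (33.3%, against 4.19% of all genes), all negative, and the median was -0.62, with 25 of the 27 values below 0. On low fat 3 rose with restriction and on high fat 3 fell. The number that passed was 4 without LF 2, LF 3 or HF 1, 5 without LF+CR 1, HF 3, HF+CR 1 or HF+CR 2, 4 without both livers with pancreatic transcripts, and 7 without both LF+CR 2 and HF 1.

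Gsta2, a glutathione S-transferase induced through NRF2, was at 1013, 796 and 545 in LF, 1477, 3223 and 1119 in LF+CR, 2183, 2565 and 2270 in HF, and 876, 777 and 740 in HF+CR. HF lay well above HF+CR, and LF+CR above LF in every liver. Its low-fat difference of 1.18 did not pass (adjusted p = 0.0609), the fall of 1.53 on high fat did, and the interaction was -2.72 (SE 0.44, adjusted p = 0.0066), or -2.28 (adjusted p = 0.0014) without LF+CR 2. Mgst3, a microsomal transferase, rose by 0.70 and fell by 1.10 and was the member that passed on both diets, with an interaction of -1.80 (SE 0.22, adjusted p = 9.6e-04), or -1.03 over the mean of its probe sets.

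Several of these genes were brightest in LF+CR 2. Gstm3 was at 4072, 9870 and 2979 in LF+CR against 1580, 1363 and 1358 in LF, and Nqo1, a quinone reductase, at 287, 617 and 240 against 159, 189 and 168. Without LF+CR 2 their interactions were -2.06 in place of -2.56 and -1.74 in place of -2.13, and both still passed (adjusted p = 0.014 and 0.0057). The call for Gstm3 was lost without LF 2, LF 3, HF 1 or HF+CR 2 (adjusted p up to 0.0566) and without both LF 1 and LF+CR 1 (-2.77, adjusted p = 0.063). LF+CR 2 is also the liver with the high macrophage and stellate cell markers, and their part in these values was not tested. Nfe2l2, which encodes NRF2, did not pass after adjustment (-0.51, 95% interval -0.98 to -0.05, adjusted p = 0.186).

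Ccnd1, the cyclin of entry into the cell cycle, had the same liver, high in macrophage and stellate cell markers, at its top: 875, 2470 and 648 in LF+CR against 273, 283 and 286 in LF, with 823, 417 and 563 in HF and 533, 322 and 442 in HF+CR. The interaction was -2.38 (adjusted p = 0.0373). It was -1.81 (adjusted p = 0.016) without LF+CR 2 and -1.56 (adjusted p = 0.0183) without both LF+CR 2 and HF 1, while the call was lost when any of 9 other single livers was left out (adjusted p up to 0.0976) and without both LF 1 and LF+CR 1 (-2.53, adjusted p = 0.088). Of 15 genes of replication and proliferation that were tested it was the only one to pass the interaction (6.67%, against 4.19% of all genes).

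Cytochromes of xenobiotic metabolism with their receptors CAR and PXR gave 6 negative calls among 19 members and 0 positive, with a median of -0.206. The share that passed was 31.6%, against 4.19% of all genes. All of Cyp2b9, Cyp2b13, Cyp2b10 and Cyp2c38 also stand in the female-biased list. The other members that passed were Cyp3a11 (-0.91) and Cyp3a25 (-0.56). The receptor genes did not pass: the interaction was -0.28 for Nr1i3 (95% interval -0.76 to 0.20) and -0.32 for Nr1i2 (adjusted p = 0.164).

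Bile acid genes passed in both directions. Of 22 members 4 passed with a positive interaction (Slco1a1, Cyp7b1, Slc10a2 and Amacr) and 2 with a negative one (Slco1a4 and Akr1d1), and the median was 0.137. The share that passed was 27.3%, against 4.19% of all genes, and Slco1a1 and Cyp7b1 also stand in the male-biased list. Slco1a4, a second organic anion transporter, was at 481, 530 and 805 in LF, 1632, 862 and 1133 in LF+CR, 624, 891 and 768 in HF, and 489, 598 and 384 in HF+CR. On each diet it moved in the direction opposite to Slco1a1, but neither of its differences passed (0.97 and -0.62, adjusted p = 0.0533 and 0.16). Its interaction of -1.59 (adjusted p = 0.0283) was lost when any of 7 single livers was left out, and that of Akr1d1 (-0.80, adjusted p = 0.027) when any of 5 was (adjusted p up to 0.0657 and 0.0693). Without both LF 1 and LF+CR 1 neither passed (-1.21 and -0.62, adjusted p = 0.094 and 0.075). The gene for Cyp7a1, the rate-limiting enzyme of the classical route, did not pass (-1.29, adjusted p = 0.183), nor did the receptor gene Nr1h4 (0.13).

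The glycolysis and glycogen list gave 4 negative calls of 14 (Pgk1, Pklr, Gbe1 and Pgd) and 0 positive, with a median of -0.397. The share that passed was 28.6%, against 4.19% of all genes. Gbe1, the glycogen branching enzyme, was at 901, 982 and 1085 in LF, 1583, 1463 and 1502 in LF+CR, 1705, 1421 and 1476 in HF, and 872, 1245 and 1104 in HF+CR, with an interaction of -1.13 (SE 0.17, adjusted p = 0.004). It rose on low fat and fell on high fat with no overlap on either. Pklr, the liver pyruvate kinase and a target of ChREBP, had an interaction of -1.36 (adjusted p = 0.0108). It is also among the calls of the fatty acid synthesis list, so the counts overlap. Pgd stands in this list but is an enzyme of the pentose phosphate pathway. The count of this list was 2 without LF 1, LF 3, LF+CR 1, HF 1, HF 3, HF+CR 1 or HF+CR 2, and Pgd and Pgk1 were the members then lost, with adjusted p up to 0.0654 and 0.0783. Both were also lost without LF 1 and LF+CR 1 together (adjusted p = 0.11 and 0.12).

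**Figure D5:**
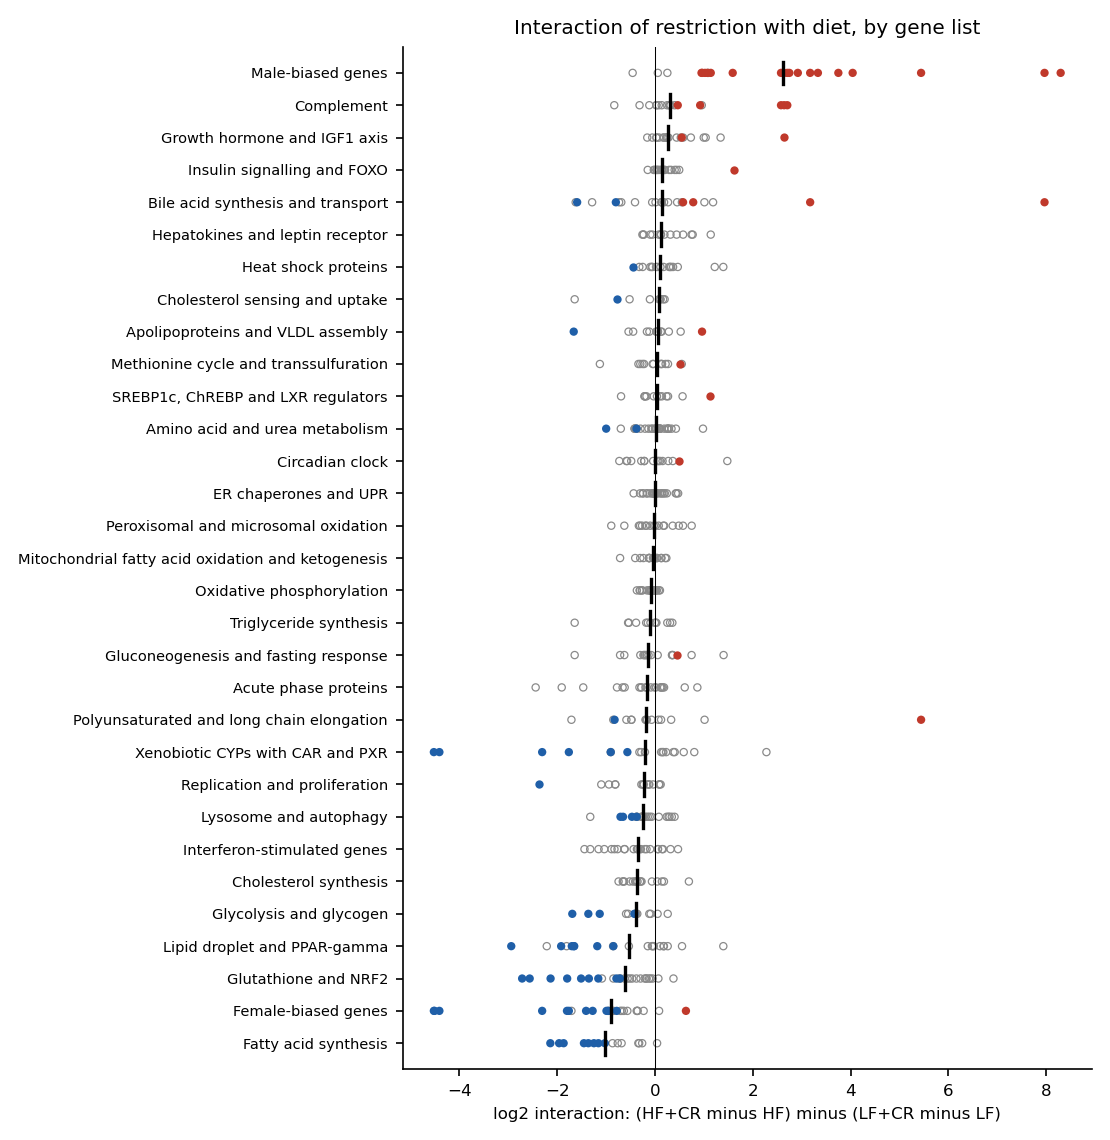
Interaction (log2) of every tested member of 31 pathway lists, 1 row per list, ordered by the median (black bar). Red and blue points passed the test with a positive or negative interaction, and open points did not pass. The male-biased list stands at the top with a median of 2.61 and the fatty acid synthesis list at the bottom with -1.03.

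Among the remaining genes with the largest interactions were several of other kinds. Ptbp1, a regulator of splicing, was at 2788, 3765 and 3796 in LF, 638, 366 and 716 in LF+CR, 1606, 2379 and 2046 in HF, and 4135, 3941 and 4291 in HF+CR, an order of groups like that of Cyp7b1. Its interaction of 3.64 (SE 0.31, adjusted p = 1.0e-04) rests on its brightest probe set: all others of the gene moved by less than 25% of it, and over the mean of its probe sets the value was 1.23. Pimreg was at 385, 510 and 633 in LF, 70.4, 55.3 and 75.8 in LF+CR, 197, 311 and 214 in HF, and 590, 891 and 821 in HF+CR, with an interaction of 4.25 (SE 0.29). Its LF+CR livers were dim, and the value was 4.56 or 3.56 with a constant of 1 or 64.

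Tceal8 was at 225, 273 and 209 in LF, 589, 1048 and 403 in LF+CR, 1204, 470 and 896 in HF, and 229, 256 and 214 in HF+CR, with an interaction of -3.08 (SE 0.47, adjusted p = 0.0045). LF and HF+CR were nearly level, and the other 2 groups lay above both. Rad51b, a gene of recombination repair, fell on high fat from 720, 732 and 718 to 73.0, 155 and 122, and its LF livers spread from 153 to 736. Its interaction was -3.58 (SE 0.58), and -1.79 over the mean of its probe sets.

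Further genes that passed on both diets with opposite sign were Aqp3, an aquaglyceroporin, with means of 286, 58.1, 166 and 386 in LF, LF+CR, HF and HF+CR, Keg1 (1994, 954, 932 and 1950) and Hsd17b2, a dehydrogenase that inactivates oestradiol and testosterone (1272, 816, 1055 and 1505). Their interactions were 3.14, 2.22 and 1.12, and Aqp3 was dim in LF+CR, so that its fold is uncertain. Cbr1, a carbonyl reductase, ran the other way with means of 1062, 1965, 974 and 554 and an interaction of -1.66. These 4 were picked from the 36 after their values were seen.

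Several lists held 1 or 2 calls each, where 4.19% of all genes tested passed. Insig1, which retains the SREBP complex in the endoplasmic reticulum, rose on low fat by 0.84 and differed by 0.06 on high fat (interaction -0.78, adjusted p = 0.0173), the single call among 9 genes of cholesterol sensing and uptake. Apom, an apolipoprotein of high-density lipoprotein, rose on high fat by 0.62 from 1910, 1839 and 1928 in HF to 2840, 2970 and 2938 in HF+CR, and its interaction was 0.96 (SE 0.17, adjusted p = 0.0094). Cbs, which draws homocysteine into cysteine synthesis, also rose on high fat (0.47, interaction 0.51, adjusted p = 0.0395). Glul, the glutamine synthetase of hepatocytes around the central vein, and Etnppl, a phosphoethanolamine lyase, both had negative interactions (adjusted p = 0.0239 and 0.0062). They were the 2 calls among 30 genes of amino acid and urea metabolism (6.67%, near the share of all genes). Over the mean of their probe sets neither passed (interactions of -0.21 and -0.58, adjusted p = 0.21 and 0.24). For Glul the call was also lost without LF 3, LF+CR 1, HF 3 or HF+CR 2 (adjusted p up to 0.0672).

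Other gene lists showed no call in the interaction. The limma test called 0 of 17 genes of mitochondrial fatty acid oxidation and ketogenesis (2 at an unadjusted p below 0.05), 0 of 17 of peroxisomal and microsomal oxidation (7), 0 of 25 of ER chaperones (4), 0 of 21 of oxidative phosphorylation (5), 0 of 13 of triglyceride synthesis (3), 0 of 21 acute phase genes (5), 0 of 15 hepatokines (5) and 0 of 23 interferon-stimulated genes (6). Over all genes tested 3048 of 14006 were at an unadjusted p below 0.05. The medians of these lists lay between -0.351 (interferon-stimulated genes) and 0.124 (hepatokines). Ppara, the receptor that drives fatty acid oxidation in fasting, had an interaction of 0.19 with a 95% interval from -0.74 to 1.12.

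Promoter motifs were counted as a description in RefSeq promoters of 300 bases (GRCm38.p6), on both strands. The palindrome TTCNNNGAA, the core bound by STAT5, was present in 9.55% of 27025 promoters, in 1 of 14 male-biased genes that passed (C8a) and in 1 of 11 female-biased ones (Fmo2). The E-box CACGTG stood in 8.09% of all promoters and in 2 of 12 genes (Ptbp1 and Tceal8), namely those of the 20 largest interactions that had an entry. The HNF4-type element TGACCTTTG (0.544% of all) and a sterol response element (0.0999%) were in none of these sets, and none of the 4 motifs was in a promoter of the 8 fatty acid synthesis genes that passed. The sterol response element was searched as a single exact sequence, so variants of it were not counted. Both elements are so rare among all promoters that sets of 8 to 14 genes could hardly hold a match. Their absence is therefore uninformative, and whether these genes hold working sites of either kind was not tested. For TTCNNNGAA the shares of 7.14% (male-biased) and 9.09% (female-biased) were near the 9.55% of all promoters. Sets of 8 to 14 genes are also too small to show a difference in TTCNNNGAA or CACGTG, including their absence from the 8 fatty acid synthesis genes. Sites outside the 300 bases were not searched.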

How the data were processed

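The authors deposited 1 intensity per probe set on a linear scale for each of 18 Affymetrix whole-genome mouse arrays, already summarised and scaled. Neither the tool nor the method is named in the labels. Per the labels' protocols, Trizol RNA was labelled as biotinylated cRNA. Array medians differed by 0.153 on the log2 scale, under a limit of 0.2, so the values were used as deposited.

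Of 45101 probe sets 64 were controls, and 34945 carried 1 gene symbol, 932 several and 9160 none in the platform annotation, 34741 of them matched in RefSeq by gene ID. Each gene was represented by its brightest probe set on average and was kept where at least 3 of 12 arrays had it over their own 40th percentile, which left 14006 genes and removed 4187. A mean per group was fitted to log2 of the intensity plus 16 using limma 3.58.1 under R 4.3.3, where residual degrees of freedom were 8 and prior ones 3.78, with Benjamini-Hochberg adjustment over all genes tested and a threshold of 0.05. Each adjusted p comes from this fit. SE is the moderated standard error of a log2 difference, and precision is limited by how many arrays there were.

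The members and gene lists were chosen with earlier results of these data known. Named genes were the 10 largest positive and negative interactions, up to 4 passing members of each list with at least 2, a set of 20 regulators, and the 3 genes most alike to each of the 6 largest. Of the 70 genes named by the first 3 rules, 54 passed, 29 of them with another probe set, and in 5 (Ptbp1, Glul, Etnppl, Mgst3 and Rad51b) all the others moved by less than 25% of the chosen one. Another 26 settings were run. The fit was tested on simulated data.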

Additional observations from a re-analysis of the deposited data

Results flagged for a closer look

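The restriction effects on the low-fat and the high-fat diet differed by a test of the difference itself in 587 genes, of which 332 had positive interactions and 255 negative ones (limma, 12 livers, adjusted p below 0.05). These are the interactions described above. The gap test for an outlying sample was not applied, since it needs at least 4 samples in a group.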

How the results depend on the processing

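In 26 other settings no named gene that passed changed sign, and of the 54 that passed 35 kept their call in all and 19 lost it in at least 1. The count of interactions was 1483 with array weights, 350 with the replicate number as a block, 949 with the clock difference as a covariate, 272 without LF+CR 2 and HF 1, 274 without LF 1 and LF+CR 1, and 273 to 674 with single livers left out. The low-fat count was 1287 with array weights, 791 in a fit to all 18 arrays, 189 without LF 1 and LF+CR 1, and 252 to 578 with single livers left out. The high-fat count was 2245, 308, 894 and 363 with array weights, the replicate block, the clock covariate and without LF+CR 2 and HF 1, and 170 to 1067 with single livers left out. The replicate numbers did not pair the livers: 2 of 18 pairs of the same number correlated above 0.1 in their deviations, and 1 of 12 livers correlated best with its own number. The cause of these shifts was not tested. Of the 587 genes 239 stayed called without LF+CR 2 and HF 1, 240 without LF 1 and LF+CR 1, and 339 with the block. Signal near the dim limit bounds the sizes given for genes with a dim group, among them Hsd3b5, Cyp2b13, Cidea, Cidec, Pimreg, Aqp3 and Cyp2b10.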

Other observations

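Alas2, the first enzyme of haem synthesis in red cell precursors, followed the order of the male-biased genes. Its intensities were 814, 995 and 864 in LF, 375, 456 and 393 in LF+CR, 868, 778 and 880 in HF, and 1173, 1111 and 1282 in HF+CR, with an interaction of 1.59. The other erythroid markers tested did not pass.

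Lyve1, a receptor of sinusoidal and lymphatic endothelium, was at 348, 310 and 337 in HF and between 106 and 163 in the other 9 livers, with an interaction of -0.81. It was the only one of 11 sinusoidal endothelial markers that passed (9.09%, against 4.19% of all genes). Of 22 lysosomal genes 4 passed (18.2%, against 4.19% of all genes) with small negative interactions, Ctsd (-0.71), Hexa (-0.65), Npc2 (-0.47) and Ctsb (-0.37). The list's median was -0.239. With single livers left out, 1 to 3 of them passed. Of the 12 omissions, 12 ended the call for Npc2, 11 for Ctsb and 10 for Hexa (adjusted p up to 0.11, 0.101 and 0.121), and 0 for Ctsd. Over the mean of its probe sets Npc2 was at -0.15 (adjusted p = 0.23).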
